A study of Mus musculus with 28 samples.

Results

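Chromatin marks were examined at 9 mouse genes that p53 activates and whose products act in cell death: Bbc3, Bax, Pmaip1, Fas, Tnfrsf10b, Aen, Phlda3, Trp53inp1 and Rps27l. A region of the deposited tables was given to a gene when that gene had the nearest protein-coding transcription start site (TSS) and the region's centre lay within 50 kb of it. This gave 52 regions, of 80001 within 50 kb of any TSS, at 9 of 17688 genes. Of the 52 regions, 14 were proximal (within 1 kb of the TSS) and 38 distal. The genes were chosen by their role in the p53 pathway with the H2BK120ac and H3K27ac values of all 6 columns already known, so the levels and folds below are a description with no test.

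The transcription factor p53 is stabilised by DNA damage and other stresses and binds paired decamers of DNA near its target genes. Its death targets work along several routes. Bbc3 (PUMA) and Pmaip1 (NOXA) encode BH3-only proteins that oppose the survival members of the BCL2 family, and Bax encodes an effector that permeabilises the outer mitochondrial membrane. Fas and Tnfrsf10b encode death receptors of the cell surface. Aen encodes an apoptosis-enhancing nuclease, Phlda3 a repressor of the survival kinase AKT, Trp53inp1 a nuclear stress protein that promotes p53 activity, and Rps27l a paralogue of a small-subunit ribosomal protein. Embryonic stem cells carry p53 and are prone to apoptosis after DNA damage.

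All samples were mouse embryonic stem cells (mESCs) of the genotype FOXD3-iKO, an inducible knockout of the forkhead factor FOXD3, grown in L2i with a labelled treatment time of 24 h. The sources used here do not give the driver of the recombinase or the number of clones. H3K27ac, an acetylated lysine of histone H3 at active promoters and enhancers, was profiled in asynchronous cells treated with EtOH (solvent, 2 samples) or 4HT (the tamoxifen that induces FOXD3 loss, 2 samples). H2BK120ac, an acetylated lysine of histone H2B, was profiled in 4 groups of 3 samples, coded as ED, ET, TD or TT. As the codes are not spelled out, which letter stands for FOXD3 loss is not stated here and the groups keep their codes. The assay was CUT&Tag, in which an antibody brings a transposase to marked chromatin.

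The authors merged the samples of each group into 1 column, so no spread between replicates exists in these tables, and every value below is a single merged coverage in CPM, coverage scaled to library size. Such coverage is a mean per base, but bases without coverage seem to be left out of it, which raises sparsely covered regions, so levels of regions that differ in width are only roughly comparable. The commonest value of a column was taken as 1 fragment, which is 0.412 to 0.445 CPM in H2BK120ac and 0.165 to 0.207 CPM in H3K27ac and corresponds to depths of 2245637 to 2430039 fragments (H2BK120ac) and 4823043 to 6076552 fragments (H3K27ac). The fragments given below are a value divided by that of 1 fragment and rounded. They are thus a mean pile-up per base and not the number of fragments in a region. Intervals are exact 95% Clopper-Pearson intervals that treat these pile-ups as counts, summed over regions for a gene. They are a rough guide to counting error and cover no other error. A gene's level is the mean over its regions that passed a minimum signal, and its fold is taken on log2(value + pseudocount), with a pseudocount of 0.4 for H2BK120ac and 0.2 for H3K27ac. The 10 embryonic stem cell markers examined all had coverage, with a summed level of 6.87 to 12.3 CPM over the H2BK120ac groups and 18.5 to 24.0 over the H3K27ac groups. The summed level of 7 fibroblast markers was 1.45 to 3.03 and 1.34 to 1.47 CPM, and Dcn was at 0 in all 6 columns. These sums are over fewer genes, and single fibroblast markers were not all low. The highest reached 1.62 CPM in TD, where the stem cell markers ran from 0.633 to 1.87. In H3K27ac of 4HT cells the highest was 0.660, where the stem cell markers ran from 0.473 to 6.47. In such bulk samples fewer cells with a mark and less of the mark per cell cannot be told apart.

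Promoter sequences are shown for the 4 genes in which the RefSeq windows (GRCm38.p6, from 250 bases before to 50 after a start site) held a close match to the p53 response element, since these are the letters that lie under or beside the marked regions. The search was for a pair of 10-base p53 decamers, with at most 1 base between them, that matched at least 17 of the 20 consensus letters and held the fixed C and G of each decamer. The decamer consensus reads the same on both strands. The minimum of 17 letters and the spacer of at most 1 base were set after the matches had been seen. Of the 9 genes, 6 had a window in the table, and 4 of these 6 held such a pair, against 561 of 17492 protein-coding genes (3.21%). The printed stretches run 5′ to 3′ on the gene's strand up to the start site, for Aen 30 bases further, and capitals mark the matching pair. Some of the genes have more than 1 start site. The Rps27l stretch ends before the one at 66946413. The gene's promoter region was assigned to the one at 66946086, and the pair lies downstream of that site. The best pair in the window of that site matched 15 letters. Bbc3 is chr7:16309333-16309582 (plus strand), Aen chr7:78895677-78895956 (plus), Rps27l chr9:66946163-66946412 (plus) and Bax chr7:45466899-45467148 (minus).
Bbc3: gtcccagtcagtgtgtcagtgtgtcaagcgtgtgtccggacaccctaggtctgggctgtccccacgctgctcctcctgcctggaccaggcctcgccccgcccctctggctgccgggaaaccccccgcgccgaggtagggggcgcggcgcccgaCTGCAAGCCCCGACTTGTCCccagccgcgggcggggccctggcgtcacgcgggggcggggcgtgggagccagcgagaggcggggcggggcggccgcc
Aen: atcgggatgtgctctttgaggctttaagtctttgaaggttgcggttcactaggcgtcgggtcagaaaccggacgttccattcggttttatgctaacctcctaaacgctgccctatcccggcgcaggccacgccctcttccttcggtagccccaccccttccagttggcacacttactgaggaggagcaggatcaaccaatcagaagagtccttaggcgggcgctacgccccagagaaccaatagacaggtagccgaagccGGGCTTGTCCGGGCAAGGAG
Rps27l: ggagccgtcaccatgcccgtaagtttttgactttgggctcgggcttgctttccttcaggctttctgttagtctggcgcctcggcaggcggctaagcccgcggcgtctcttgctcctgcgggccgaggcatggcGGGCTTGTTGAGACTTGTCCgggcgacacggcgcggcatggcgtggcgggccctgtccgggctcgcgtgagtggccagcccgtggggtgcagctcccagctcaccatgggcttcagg
Bax: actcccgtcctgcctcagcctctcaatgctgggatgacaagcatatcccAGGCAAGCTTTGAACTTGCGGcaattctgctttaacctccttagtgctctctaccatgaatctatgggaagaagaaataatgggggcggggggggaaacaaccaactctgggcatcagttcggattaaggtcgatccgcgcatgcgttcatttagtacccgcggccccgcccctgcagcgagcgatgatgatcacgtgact

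The Rps27l pair matched 19 of 20 letters without a spacer, a score reached by 19 of 17492 genes (0.109%). The Bbc3 and Aen pairs matched 17 letters without a spacer, and the Bax pair matched 18 letters with a spacer of 1 base. The pairs of Bbc3 (16309486 to 16309505), Aen (78895937 to 78895956) and Rps27l (66946296 to 66946315) each lay inside the gene's strongest promoter region of the tables. The Bax pair, at 45467079 to 45467099, lay in no region of the tables, between the 2 promoter regions of the gene. In the Phlda3 window the best pair matched 15 letters, and the Fas window held no pair with the fixed letters. A second search asked for the centre letters C, A, T and G, in that order, in both decamers and without a spacer. It found such a pair in 0 of the 6 genes with a window. Of all 21263 windows searched, 149 held one (0.70%). At so low a rate, 0 of 6 cannot tell these genes from others. A match of letters is not a measurement of p53 binding, and the windows cover 300 bases only.

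H2BK120ac at these promoters was high in TD and TT and low in ED and ET. In 12 of the 14 proximal regions both TD and TT lay above both ED and ET, whereas 28.0% of all proximal regions showed this separation. With the regions of minimum signal only, the count was 12 of 13 against 42.1%. The exceptions were a region 727 bp from the Aen start site (0.628 in TD and 0.520 in TT, against 0.737 in ET and no coverage in ED) and one 615 bp from that of Bax (0.886 in TD and 0.262 in TT, against 0.445 in ET and none in ED). Both held 2 fragments or fewer in each group. At gene level all 9 genes showed the separation, against 34.6% of genes with kept regions and 25.1% of all genes. In TD, 8 of the 14 proximal regions reached 5 fragments, as did 6.89% of all proximal regions, while in ED none did, against 0.172%. Taking 2-fold as the limit, 12 of the 13 proximal regions of minimum signal were higher in TD than in ED and none lower, where 25.7% and 4.88% of all such regions were. In TT against ET 10 of 13 were higher and none lower (23.9% and 4.52%). In ET against ED 4 were higher and 1 lower (8.19% and 7.13%), and in TT against TD none was either (5.41% and 5.71%). The minimum is a mean over the 4 groups, so TD and TT alone can carry a region past it, as at Fas. A call against a group without coverage rests on the pseudocount. In ED such regions were those of Fas and Tnfrsf10b and the one 727 bp from the Aen start site. Those of Tnfrsf10b and Aen had 2 or 3 fragments in TD. No 2-fold count of regions without the minimum is given.

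**Figure D1:**
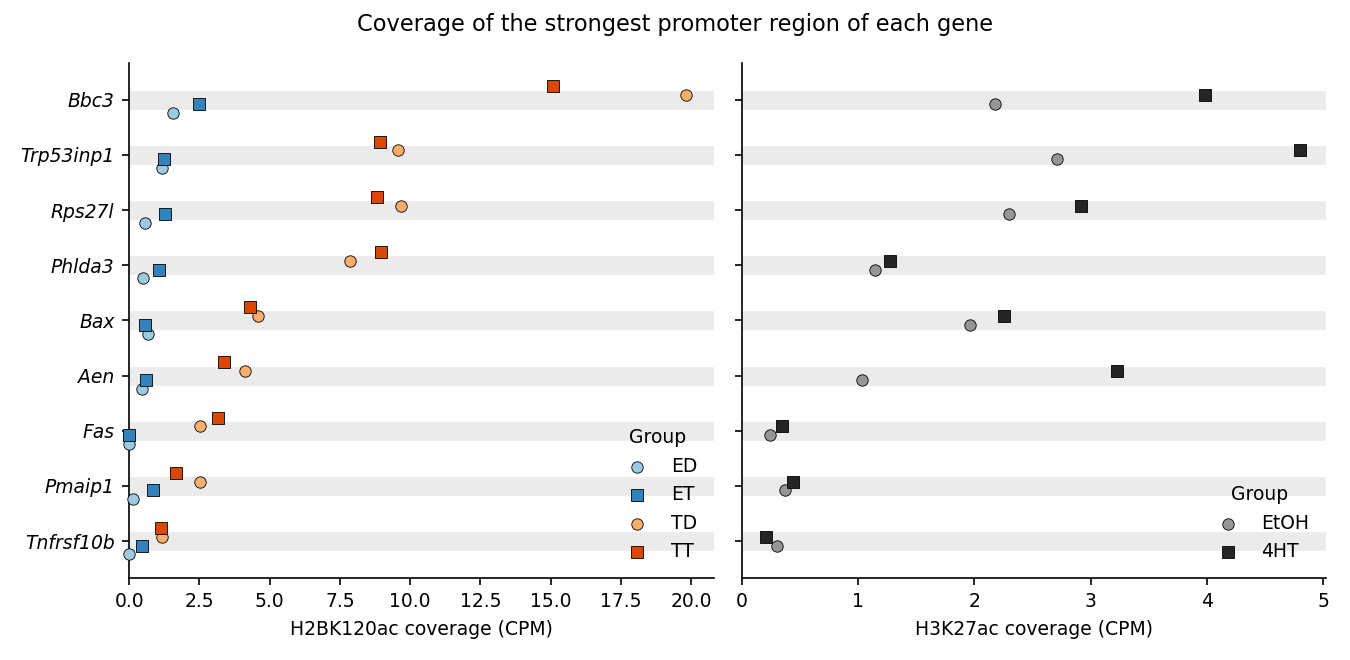
Coverage in CPM (horizontal axes) of the strongest promoter region of each of the 9 genes, with H2BK120ac in ED, ET, TD and TT on the left and H3K27ac in EtOH and 4HT on the right. Each point is 1 merged column without replicate error, and a region without coverage is drawn at 0. H2BK120ac in TD and TT lay to the right of ED and ET at all 9 promoters, from 1.16 CPM in TD at Tnfrsf10b to 19.8 CPM at Bbc3.

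Among the genes of the mitochondrial route, the Bbc3 promoter carried the highest H2BK120ac. Its region at chromosome 7, 16309245 to 16309710, had 1.56 CPM in ED and 2.502 in ET, against 19.8 in TD and 15.1 in TT. TD and TT stood far above the other groups, and TD exceeded 99.98% of all proximal regions. The ratio was 12.7 for TD against ED (4.06 to 42.4) and 6.03 for TT against ET (2.33 to 16.2), while TT against TD was 0.76 (0.48 to 1.19). The Bax promoter region at chromosome 7, 45466429 to 45466992, had 0.687 CPM in ED and 0.549 in ET, against 4.599 in TD and 4.32 in TT. Its ratios were 6.70 (1.11 to 47.2) for TD against ED and 7.87 (1.32 to 404) for TT against ET. The Pmaip1 promoter region, at chromosome 18, 66458195 to 66458998, had 0.154, 0.858, 2.52 and 1.65 CPM in ED, ET, TD and TT. TD and TT were the higher groups here too, at 6 and 4 fragments. The TD against ED ratio had a lower limit of 1.09, and TT against ET was within counting error (1.93, 0.267 to 20.6). A second Pmaip1 region, 0.740 kb from the start site, had 0.334, 0.445, 0.804 and 1.85 CPM, and a second Bbc3 promoter region, at 16310053 to 16310279, had 0.445 in ED, none in ET, 1.91 in TD and 2.71 in TT. In both, TD and TT again lay above ED and ET, though TT was above TD here.

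The death receptor genes, like Pmaip1, had promoters of few fragments. The Fas region at chromosome 19, 34290316 to 34291085, had no coverage in ED or ET, 2.52 CPM in TD and 3.15 in TT. Against the limit of 3 fragments that a count of 0 allows, TD was at least 1.89-fold higher than ED and TT at least 2.36-fold higher than ET. For Tnfrsf10b, the region at chromosome 14, 69767431 to 69767895, had no coverage in ED and 0.445 CPM in ET, against 1.16 in TD and 1.12 in TT. These are 3 fragments each in TD and TT, within the limit that a count of 0 in ED allows, so a difference was not detectable at this depth. The second Tnfrsf10b region, 0.725 kb from the start site, had none, 0.445, 0.827 and 1.53 CPM in the same order.

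The remaining genes act around p53, AKT and the ribosome. The Rps27l region at chromosome 9, 66945683 to 66946676, which holds the 19-letter pair, had 0.552 CPM in ED and 1.26 in ET, against 9.67 in TD and 8.82 in TT. Trp53inp1, at chromosome 4, 11156028 to 11156809, had 1.17, 1.22, 9.56 and 8.95 in the same order. Phlda3, at chromosome 1, 135765860 to 135766562, had 0.490, 1.05, 7.84 and 8.97. In none of these genes did TD and TT differ beyond counting error, with TT against TD ratios of 0.91 (0.48 to 1.74), 0.94 (0.51 to 1.81) and 1.14 (0.60 to 2.28). The Aen promoter, at chromosome 7, 78895647 to 78896162, had 0.440 CPM in ED and 0.614 in ET, against 4.12 in TD and 3.38 in TT, on 10 fragments in TD and 1 in ED.

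Ordered by promoter H2BK120ac in TD, the genes ran Bbc3, Rps27l, Trp53inp1, Phlda3, Bax, Aen, Pmaip1, Fas and Tnfrsf10b. Only the first step exceeded counting error, with Bbc3 above Rps27l by a ratio of 2.05 (1.24 to 3.59). Each later neighbour pair had an interval that included 1. In TT no neighbouring pair was separated beyond counting error, and Bbc3 against Phlda3 had a ratio of 1.68 (0.94 to 2.92).

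Averaged over each gene's regions of minimum signal, the log2 fold on value + pseudocount was at least 1 (2-fold) in TD against ED for 9 of the 9 genes, where 17.8% of 12271 genes were higher and 7.95% lower. The median log2 fold was 2.16, against 0.10 over all genes. Rps27l had the largest log2 fold (3.40), and Pmaip1 (1.08) and Trp53inp1 (1.15) had the smallest. For Fas the 2-fold call rests on the pseudocount. That gene had no coverage in ED and entered the set through TD and TT alone. Its bound of at least 1.89-fold lies under the 2-fold limit. With Fas at that bound the median was 1.92. For Tnfrsf10b the ratio was 5.15 on 7 fragments against 1, with an interval that included 1 (0.832 to 292). Without the minimum on signal, 6 of the 9 genes were at least 2-fold higher, against 10.1% of genes (none was lower, against 5.79%), and Pmaip1 (0.62), Tnfrsf10b (0.85) and Trp53inp1 (0.88) were the ones below.

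In TT against ET, 6 of the 9 genes were at least 2-fold higher and none lower, where 15.6% of genes were higher and 8.49% lower. The median log2 fold was 2.11, against 0.06 over all genes, and 1.24 with Fas at its bound. Among the genes with coverage in ET the largest log2 folds were those of Bax (2.74), Bbc3 (2.63) and Rps27l (2.47). Fas had no coverage in ET and is given only as at least 2.36-fold higher. Pmaip1 (0.44), Tnfrsf10b (0.71) and Trp53inp1 (0.9993, just under 2-fold) were below. For Pmaip1 the level was 1.76 in TD against 0.619 in ED and 1.45 in TT against 0.963 in ET. Without the minimum on signal 7 of the 9 genes were higher and none lower, against 9.14% and 6.16% of genes. Whether the TD against ED fold differs from the TT against ET fold was not tested, as neither has replicates here.

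**Figure D2:**
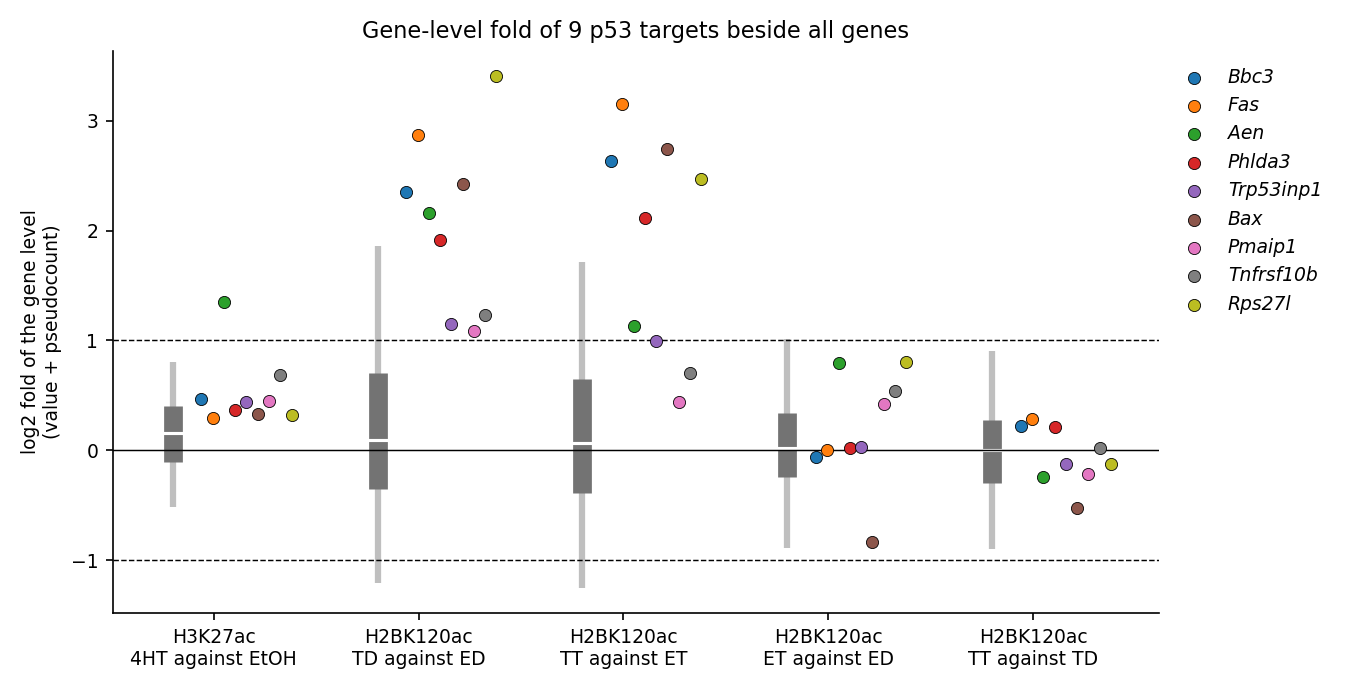
Log2 fold of the gene level, on value + pseudocount, in 5 comparisons (vertical axis), with 1 coloured point per gene. Grey bars span the 5th to 95th (thin) and 25th to 75th (thick) percentiles of all genes with a white line at the median, and dashed lines mark 2-fold. The 9 points lie above 2-fold in TD against ED, that of Fas through the pseudocount, while in TT against TD they lie between -0.52 and 0.28.

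The second letter of the code went with smaller differences. In ET against ED no gene was at least 2-fold higher or lower, where 5.10% of genes were higher and 4.21% lower. The log2 folds ran from -0.84 for Bax to 0.81 for Rps27l, with a median of 0.03, and Fas had no coverage in either group. In TT against TD again none of the 9 reached 2-fold (4.07% and 4.28% of genes did). The log2 folds ran from -0.52 for Bax to 0.28 for Fas, with a median of -0.12. Without the minimum on signal none reached 2-fold in either comparison, where 3.93% of genes were higher and 3.55% lower in ET against ED, and 3.20% and 2.87% in TT against TD.

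Away from the promoters the picture was mixed. Of the 38 distal regions, 16 were higher in TD than in ED, 18 lower and 4 without coverage in both. TT was above ET in 17 and below it in 17. In 9 of the 38 both TD and TT lay above both ED and ET, where 11.9% of all distal regions did, and with the minimum on signal in 6 of 17, against 22.5%. By the 2-fold limit 4 of these 17 were higher and 2 lower in TD against ED (18.2% and 18.8% of all such regions), and 5 higher and 5 lower in TT against ET (15.9% and 20.7%). In ET against ED 3 were higher and 1 lower (11.4% and 8.25%). Most distal values were those of 1 or 2 fragments, and the distal median was 0.412 CPM in TD and 0.445 in ED.

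**Figure D3:**
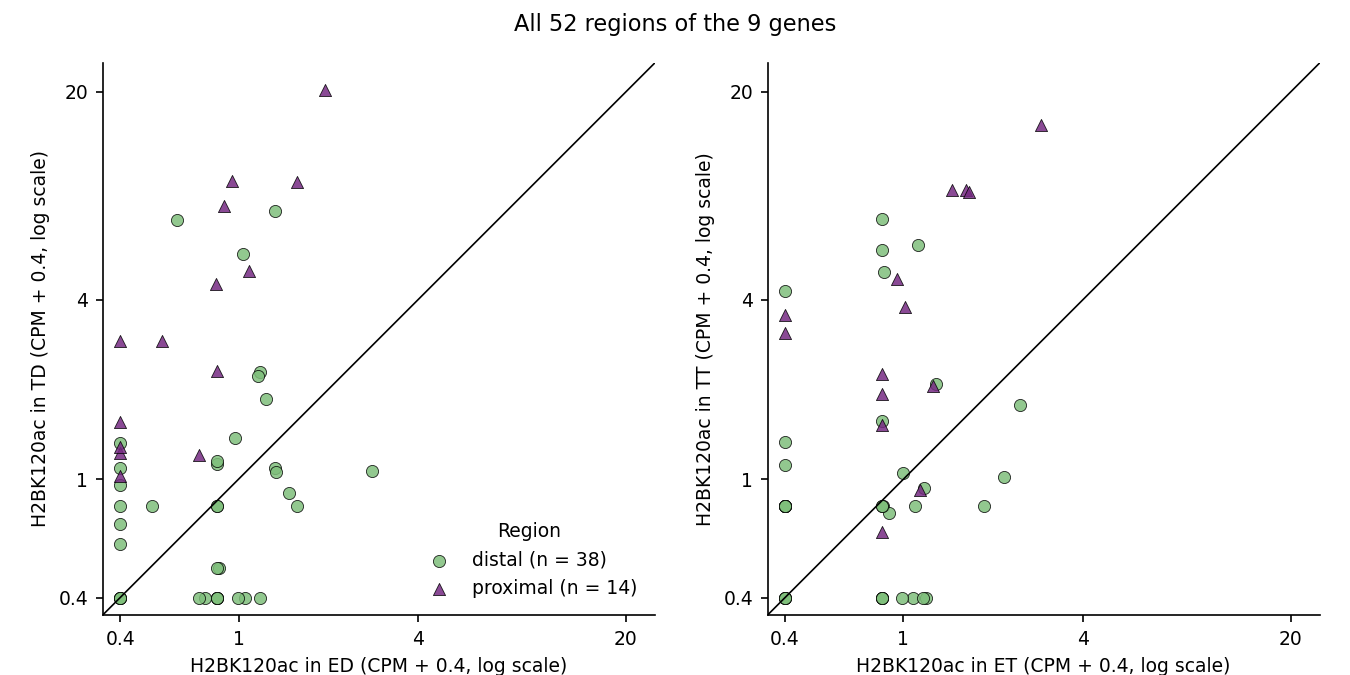
H2BK120ac coverage of all 52 regions of the 9 genes, as CPM + 0.4 on log axes, in TD against ED (left) and TT against ET (right). Purple triangles are the 14 proximal regions, green circles the 38 distal ones, points at 0.4 have no coverage, and the line marks equal values. The triangles lie above the line in 14 of 14 cases on the left and 12 of 14 on the right, while the circles fall on both sides. The share of all proximal regions above the line was not counted. Their median log2 fold, with the minimum on signal, was 0.30 on the left and 0.31 on the right.

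A few distal regions had promoter-like values, and they belonged to Phlda3, Bax, Pmaip1 and Bbc3. The Phlda3 region 5.68 kb upstream of its start site, at chromosome 1, 135760295 to 135760516, had 0.634 CPM in ED and 0.445 in ET, against 5.31 in TD and 5.498 in TT. It lay outside the gene, and its ratio was 8.38 (1.81 to 511) for TD against ED and 12.3 (1.82 to 514) for TT against ET. In Bax, a 112 bp region inside the gene, 1.16 kb downstream of the start site at chromosome 7, 45465680 to 45465791, had 0.922 CPM in ED and none in ET, against 7.53 in TD and 3.88 in TT. Its mean pile-up in TD was 18 fragments per base, against 11 in the wider promoter region of the gene. As a mean per base, this does not say which region held more fragments in all.

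The strongest distal regions of the other genes were weaker. That of Trp53inp1, 4.31 kb upstream at chromosome 4, 11152034 to 11152227, had 0.779, 0.891, 1.88 and 1.69 CPM in ED, ET, TD and TT. That of Tnfrsf10b, 13.2 kb from the start site and inside the gene, had 0.576, 0.492, 0.978 and 0.370. Those of Aen and Rps27l held at most 1 fragment in any column, and the only distal Fas region had no coverage at all.

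At Pmaip1 the strongest H2BK120ac in TD and TT was not at the promoter. A region beyond the 3′ end of the gene, 11.0 kb from the start site at chromosome 18, 66469515 to 66469745, had 0.222 CPM in ED and 0.720 in ET, against 6.999 in TD and 5.70 in TT. The TD against ED ratio was 31.5 (2.46 to 657) and that of TT against ET 7.91 (1.497 to 59.1). Its H3K27ac was 0.329 CPM in 4HT and without coverage in EtOH. A 1065 bp region on the other side, 29.1 kb from the start site at 66428981 to 66430045, went the other way in H2BK120ac, with 2.41 in ED and 2.07 in ET, against 0.663 in TD and 1.38 in TT. That difference was within counting error (ratio of TD to ED 0.275, 0.035 to 2.26). This region was picked after its values were seen. Proximal regions held 36.9% of the width-weighted H2BK120ac signal of Pmaip1 in TD, against 89.1% for Bbc3 and Trp53inp1.

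At Bbc3, neighbouring distal regions were higher in TT than in TD. Inside the gene, 3.23 kb downstream of the nearest start site, the region at 16313581 to 16313751 had 0.765 CPM in ED and 0.445 in ET, against 1.82 in TD and 7.09 in TT. The neighbouring region, at 16313836 to 16314360, had 0.840, 0.459, 1.46 and 4.57. In both TT was the highest group. The TT against TD ratio was 3.89 (1.40 to 17.5) in the first and 3.14 (0.82 to 11.9) in the second. Neighbouring regions may share fragments, and the second was picked after its values were seen. At the strongest Bbc3 promoter region TD was the highest group, but within counting error of TT. The other promoter region of the gene was higher in TT (2.71 CPM) than in TD (1.91). Among all distal regions of minimum signal 10.3% were at least 2-fold higher in TT than in TD and 10.9% lower, and among those of the 9 genes 3 of 17 were higher and 3 lower.

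**Figure D4:**
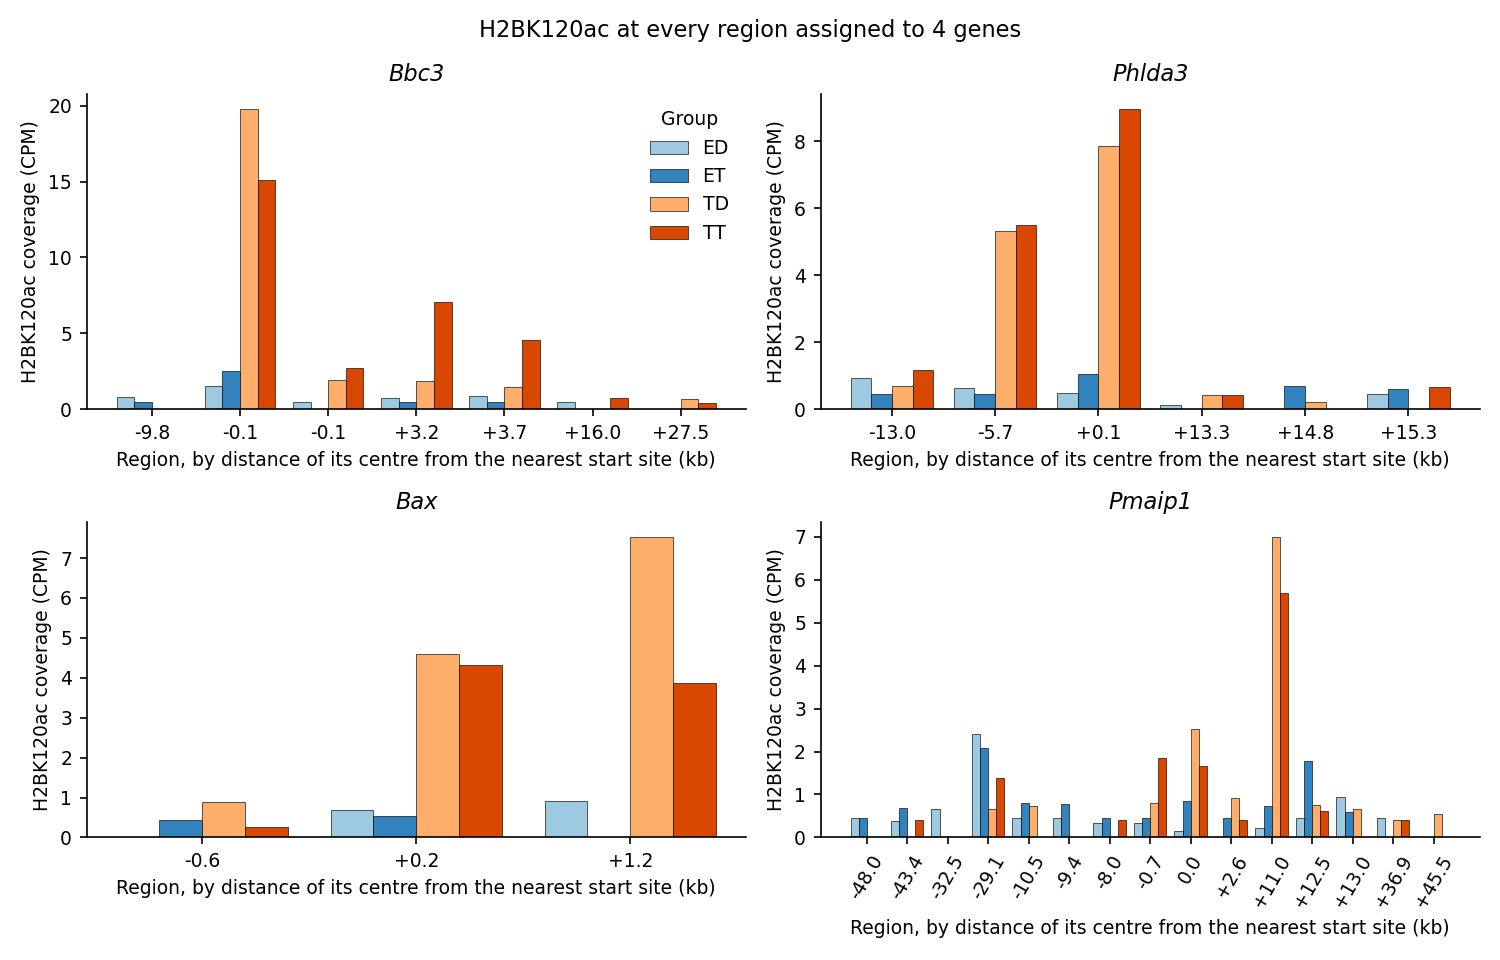
H2BK120ac coverage in CPM (vertical axes, from 0) in ED, ET, TD and TT at every region assigned to Bbc3, Phlda3, Bax and Pmaip1. Regions are ordered along the gene and spaced evenly, with labels giving the distance of the centre from the nearest start site in kb. The orange bars (TD, TT) stand out at the promoters, 5.68 kb upstream in Phlda3, 1.16 kb downstream in Bax and 11.0 kb downstream in Pmaip1, and TT exceeds TD in both Bbc3 regions that lie 3.23 and 3.67 kb downstream.

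Induced loss of FOXD3 is the question of the H3K27ac samples, and of the 9 genes Aen alone (1 of 9) was at least 2-fold higher in 4HT than in EtOH, with none lower. Over all 14889 genes 2.14% were higher and 0.900% lower. The Aen promoter region had 3.22 CPM in 4HT against 1.03 in EtOH, a ratio of 3.12 (1.25 to 10.5), and the gene's log2 fold was 1.35. All 9 genes had a positive log2 fold, as did most of all genes, whose 25th percentile was -0.10 and median 0.16. The median of the 9 was 0.44, and the 8 genes other than Aen lay between 0.30 (Fas) and 0.69 (Tnfrsf10b). With quantile normalization the members' median was 0.23, and that of all genes 0.0023. Without the minimum on signal no gene was 2-fold higher or lower, where 2.41% and 1.28% of genes were.

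By region, 1 of 13 proximal regions was at least 2-fold higher in 4HT and none lower (4.27% and 1.43% of all), and of 27 distal regions 2 were higher and 1 lower (7.27% and 3.40%). The other promoters differed by less than counting error in H3K27ac. Trp53inp1 had 4.80 CPM in 4HT and 2.71 in EtOH (ratio 1.77, 0.92 to 3.67). Bbc3 had 3.98 and 2.18 (1.83, 0.86 to 4.06). Rps27l had 2.92 and 2.30, Bax 2.26 and 1.97, and Phlda3 1.27 and 1.15. Pmaip1 had 0.439 and 0.370, Fas 0.349 and 0.246, and Tnfrsf10b 0.207 and 0.306, each of which is 1 or 2 fragments per column. The 6 genes with the higher promoter H3K27ac in EtOH were also the 6 with the higher promoter H2BK120ac in TD, and the low set was Pmaip1, Fas and Tnfrsf10b in both marks. The step that parts the sets, Aen over Pmaip1, was within counting error in both marks. Its ratio was 2.79 (0.54 to 30.4) for H3K27ac in EtOH and 1.63 (0.55 to 5.58) for H2BK120ac in TD. The order within each set differed, and Trp53inp1 came first in H3K27ac.

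Other genes of the pathway gave the setting. Of 18 genes of p53 arrest and feedback, a list that includes Trp53 itself, 11 exceeded 2-fold in TD over ED and none was that much lower. Of all genes 17.8% and 7.95% were. The median log2 fold of the 18 was 1.94. The highest were Ccng1 (3.20), the gene of cyclin G1, Plk2 (2.89), a polo-like kinase gene, and Mdm2 (2.79), the gene of the p53 ubiquitin ligase. Sesn1 (-0.37) and Ppm1d (0.17) were the lowest. In TT against ET 11 of the 18 were higher and 1 lower, with a median of 1.32, against 15.6% and 8.49% of all genes.

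In the death machinery that p53 death targets feed into, 4 of 16 measured genes of the intrinsic route were at least 2-fold higher in TD than in ED and 1 lower, near the 17.8% and 7.95% of all genes, with a median log2 fold of 0.20. Mcl1, a survival member of the BCL2 family, was the highest (4.66 CPM in TD against 0.694 in ED, log2 fold 2.21), followed by Bcl2l1 (1.20), the gene of the survival protein BCL-XL, and Htra2 (1.13), a mitochondrial protease gene. Bak1, the other effector of membrane permeabilisation, had no coverage in TD and 0.518 CPM in ED, about 1 fragment, but 0.663 in TT against 0.445 in ET. In TT against ET 4 of the 16 were higher and none lower, with a median of 0.28. Of 5 measured genes of death receptor signalling, none was at least 2-fold higher in TD than in ED and 1 was lower (17.8% and 7.95% of all genes), namely Cflar, the gene of the caspase-8 inhibitor FLIP (no coverage in TD, 1.398 CPM in ED). As for Fas, this 2-fold call rests on the pseudocount, and no bound is given for it. Tnfrsf1a, the gene of a TNF receptor, had the highest log2 fold (0.78). In TT against ET none was higher and 2 were lower, Casp8 (log2 fold -2.18) and Cflar (-1.15), with a median of -0.94, against 15.6% and 8.49% of all genes. Both rest on few fragments. Casp8 had 0.035 CPM in TT, under the value of 1 fragment, against 1.57 in ET. Cflar had 0.415 in TT, about 1 fragment, against 1.41 in ET. The ligand gene Fasl had 0.257 CPM in TD and 0.812 in ED.

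The profile of the 9 genes over the 6 columns also occurred at genes outside the p53 and death lists. Among 1234 such genes with a region of at least 5 fragments of H2BK120ac, those nearest to the median profile of the 9 were Ppia, Laptm4a, Mlana, Isoc1 and Rchy1. Nearness was the Euclidean distance of log2 values centred within each mark, and it was 0.080 to 0.179 for these 5 genes and 0.107 (Phlda3) to 1.28 (Pmaip1) for the members themselves. Ppia, the gene of cyclophilin A, had 0.328 CPM in ED and 0.362 in ET, against 2.61 in TD and 2.80 in TT. Rchy1, which encodes a ubiquitin ligase known as PIRH2, had 0.468, 0.580, 3.34 and 3.09. Being outside the lists used here does not mean that a gene is unrelated to p53.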

How the data were processed

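CUT&Tag signal of H3K27ac and H2BK120ac in mESCs was analysed in 6 group columns. The deposited values are mean coverage signal per region, scaled as CPM according to the table names, and merged over the samples of a group, per the file headers. The build is mm10, per the submitters' processing notes, and the sources used here do not give the aligner, the coverage tool or the rule for the 127646 regions. No region holds a 0, so bases without coverage seem to be left out of a mean, which raises sparse regions. Missing values were counted as 0. A further 16 IgG columns match no sample and were not used, and neither were 12 samples sorted by cell cycle phase. Background from IgG was therefore not subtracted.

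Start sites came from the RefSeq promoter table for 17492 protein-coding genes and, for 3998 others (Trp53inp1, Pmaip1 and Tnfrsf10b among them), from the end of the gene span nearest to the centre of a deposited TSS window within 5 kb. Regions were kept where the mean over a mark's groups reached the pseudocount (the 25th percentile of positive values), which left 30 of the 52 for H2BK120ac and 40 for H3K27ac. All 9 genes kept at least 1 region in both marks. A gene or region was counted as different at 2-fold. The planned tests need separate replicates, so none was run. The farthest region inside the 50 kb limit was 48.0 kb from Pmaip1 (0.445 CPM in ED and ET, none in TD and TT), and the nearest beyond it was 53.9 kb away (0.412 to 0.445 CPM in all 4 H2BK120ac groups). The members and lists were chosen with earlier results of these data known. Named were all 9 members with their strongest promoter and distal regions, up to 3 highest and 2 lowest genes of each other list in TD against ED, and the 5 nearest profiles. The fold and interval scripts were tested on simulated data. Python 3.11.15, pandas 2.3.3, numpy 2.4.6 and scipy 1.17.1 were used.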

Additional observations from a re-analysis of the deposited data

How the results depend on the processing

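The alternatives run on each comparison were 2 pseudocounts, no minimum on signal, missing values left out, regions within 10 kb or 1 kb, a width-weighted mean, the highest region only, median centring and quantile normalization. No paired analysis was possible because the replicates are merged, and for the same reason no replicate could be left out. In TD against ED the number of genes at least 2-fold higher ran from 6 to 9 and none was lower. Its median log2 fold was 1.47 with the larger pseudocount and 2.87 for the highest region. In TT against ET 5 to 9 genes were higher and none lower. For H3K27ac 0 genes were 2-fold higher without the minimum on signal, and 2 were for the highest region. In ET against ED, 2 genes were higher and 1 lower with the smaller pseudocount, 1 was higher within 10 kb, 1 higher within 1 kb (median 0.71), and 1 higher and 1 lower for the highest region. With missing values left out Fas had no value in H2BK120ac folds against ED or ET. The cause of these shifts was not tested. Of 447 single-gene folds under the alternatives, 433 stayed inside the gene's counting interval, 14 left it, and no 2-fold gene changed sign. Many of these intervals are wide, as for Tnfrsf10b in TD against ED (0.832 to 292), so staying inside them says little. Depth limits most distal regions. It also limits the promoters of Fas, Pmaip1 and Tnfrsf10b, where 0 to 8 fragments carry an H2BK120ac value.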
